A study of Mus musculus with 10 samples.

Results

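Promoters of protein-coding genes were examined in a table of chromatin accessibility for invariant natural killer T (iNKT) cells sorted out of the mouse thymus. Of the 94823 accessible regions in the table, 9916 (10.5%) held the annotated 5′ end of at least 1 protein-coding gene in the GENCODE M21 annotation of the mm10 genome, and these regions are called promoters here. They covered 10888 of 21924 protein-coding genes (49.7%). A promoter held the start of 1 gene in 8962 cases and of 2 or more genes in 954 cases, and 848 promoters held starts on both strands. The other 84907 regions held no such start and served for comparison.

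The assay was ATAC-seq. Its transposase cuts open chromatin and leaves adapters there, and the values are the insertions counted inside each region. The cells were sorted by CD27 and CD122, the latter being the β chain of the IL-2 and IL-15 receptors and the product of Il2rb. iNKT1 cells were CD27+ and CD122+ and iNKT2 cells were CD27+ and CD122-, all from adult mice that were matched for age. BALB/c mice were the wild type. SKG mice share the BALB/c background and carry a hypomorphic Zap70, the kinase that relays T cell receptor signals, in every cell rather than in a chosen cell type. There were 2 BALB/c iNKT1, 2 SKG iNKT1, 3 BALB/c iNKT2 and 3 SKG iNKT2 libraries. The labels do not say whether replicates came from separate animals, so p-values measure the spread between these libraries, which may be in part technical.

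iNKT cells are T cells with a semi-invariant receptor that recognizes lipids presented by CD1d, and they mature in the thymus into subsets that resemble helper T cell lineages. iNKT1 cells rely on the transcription factor T-bet and make interferon-γ, iNKT2 cells make IL-4, and iNKT17 cells make IL-17. A promoter is the stretch around a gene's start where the transcription machinery assembles. Promoters rich in CpG dinucleotides are often open in most cell types whether or not the gene is strongly transcribed, while CpG-poor promoters are more often open only in cells that use the gene.

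The upstream sequences of 6 promoters that carry the main comparisons are shown, each as the 150 bases before the annotated gene start, 5′ to 3′ on the gene's strand, read from the RefSeq copy of the GRCm38 (mm10) assembly. Ifng and Gzmb stand for promoters more open in iNKT1 cells, Pou2af1 and Flrt2 for promoters more open in iNKT2 cells, and Tmtc2 and Themis for promoters that differed between genotypes in iNKT1 cells. Capitals mark exact matches, on either strand, to 10 short motif strings described later. Ifng lies at chr10:118440896-118441045 on the plus strand, Gzmb at chr14:56262261-56262410 on the minus strand, Pou2af1 at chr9:51213558-51213707 on the plus strand, Flrt2 at chr12:95692076-95692225 on the plus strand, Tmtc2 at chr10:105574452-105574601 on the minus strand and Themis at chr10:28668210-28668359 on the plus strand.
Ifng: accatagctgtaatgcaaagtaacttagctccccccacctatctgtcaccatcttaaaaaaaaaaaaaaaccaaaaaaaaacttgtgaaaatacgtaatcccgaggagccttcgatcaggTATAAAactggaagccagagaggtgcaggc
Gzmb: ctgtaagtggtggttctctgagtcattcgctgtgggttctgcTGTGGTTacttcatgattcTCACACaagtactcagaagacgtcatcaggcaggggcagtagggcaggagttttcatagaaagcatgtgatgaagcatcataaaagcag
Pou2af1: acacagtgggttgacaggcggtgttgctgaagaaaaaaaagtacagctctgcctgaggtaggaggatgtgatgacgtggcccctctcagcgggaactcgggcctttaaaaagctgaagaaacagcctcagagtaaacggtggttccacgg
Flrt2: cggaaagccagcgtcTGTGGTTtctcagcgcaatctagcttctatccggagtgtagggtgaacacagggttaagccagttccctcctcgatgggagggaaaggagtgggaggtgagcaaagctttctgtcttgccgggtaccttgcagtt
Tmtc2: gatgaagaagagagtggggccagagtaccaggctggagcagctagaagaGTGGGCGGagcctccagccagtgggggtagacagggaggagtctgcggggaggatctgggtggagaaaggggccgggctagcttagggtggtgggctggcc
Themis: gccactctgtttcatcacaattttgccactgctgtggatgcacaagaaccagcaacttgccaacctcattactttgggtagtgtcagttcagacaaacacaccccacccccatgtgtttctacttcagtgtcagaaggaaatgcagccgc

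The capitals in the Ifng promoter are a TATA box (TATAAA) whose last base lies 25 bases before the start. Those in the Gzmb promoter are a RUNX string (TGTGGTT) ending 102 bases before the start and, on the opposite strand, a T-box string (TCACAC, the reverse complement of GTGTGA) ending 84 bases before it. The Flrt2 promoter held a RUNX string ending 129 bases before the start. In the Tmtc2 promoter an EGR string (GTGGGCG) and a GC box (GGGCGG) overlap and end 95 and 94 bases before the start. None of the 10 strings occurred in the windows shown for Pou2af1 and Themis.

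Depth was 14988590 to 36342635 insertions inside the listed regions per library, of which 38.7% to 46.3% fell in promoters. The median promoter held 501 to 1251 insertions per library, 0 to 44 promoters per library had none, and the promoter with the fewest held 85 insertions over the 10 libraries. Values are counts scaled to library size (CPM) after TMM scaling over all regions, and levels are compared between genes only as CPM per kilobase of region. Across promoters, libraries of the same group correlated with r of 0.978 to 0.996 and libraries of different groups with r of 0.903 to 0.989. Replicate 1 of the iNKT2 libraries stood apart in both genotypes. It was the highest of the 3 iNKT2 libraries at 21 of 25 promoters of the iNKT1 programme in BALB/c and at 17 of 25 in SKG. This was not particular to that list. It was highest at 12 and 11 of 13 T cell identity promoters in BALB/c and SKG and at 10 and 13 of 16 iNKT2 programme promoters. For the iNKT17 programme it was highest at 0 and 1 of 9. Most calls lost without it are noted below. The Zap70 promoter itself was at 50.2 and 42.5 CPM in BALB/c iNKT1, 43.2 and 48.9 in SKG iNKT1, 29.1, 21.9 and 24.2 in BALB/c iNKT2 and 34.6, 27.2 and 30.5 in SKG iNKT2. It passed the test between genotypes in neither subset (edgeR adjusted p = 0.99 and 0.13), and accessibility at this promoter says nothing about the hypomorphic kinase.

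Promoters were wider and more open than the other regions. Their median width was 665 bp against 338 bp, and 24.8% were at least 1000 bp wide against 1.85% of the others. The median level was 45.9 CPM per kilobase at promoters and 7.22 at the other regions, and promoter levels ran from 0.961 to 357. By the ratio of observed to expected CpG in the 300 bases around the region centre, with 0.6 as the limit, 81.2% of promoters were CpG-rich, against 9.70% of the other regions. The annotated start lay within 250 bp of the region centre in 8326 promoters.

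In wild-type BALB/c mice, promoters of cytotoxic and natural killer cell genes were more open in iNKT1 cells, and those of Pou2af1, Bend5, Flrt2 and of the genes of the IL-17 programme were more open in iNKT2 cells. At an adjusted p under 0.01 and at least 4-fold (edgeR quasi-likelihood test, Benjamini-Hochberg adjustment over all regions), 300 promoters (3.03%) were higher in iNKT2 and 78 (0.787%) were higher in iNKT1. The same rule called 15.5% of all regions higher and 6.36% lower in iNKT2, a larger share than among promoters in each direction, given as a description. At 2-fold, 582 promoters were higher and 655 lower in iNKT2, where 23.7% and 15.1% of all regions were called. In these sorted populations, a change in the share of cells with an open promoter and a change in how open it is in each cell cannot be told apart.

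The change at most promoters was small. The middle 90% of promoters lay between -1.07 and 1.29 on the log2 scale (iNKT2 over iNKT1), whereas the other regions ranged from -2.42 to 4.20, and 86.9% of promoters stayed within 2-fold against 52.5% of the others. The median promoter was shifted by -0.35 under TMM scaling over all regions. This shift was -0.07 when library totals were used, -0.01 with quantile normalization and -0.01 when the scaling was computed over promoters alone. The balance of directions at 2-fold moved with it. In place of 582 higher and 655 lower, there were 725 and 234 with library totals, 561 and 351 with quantile normalization and 767 and 196 with promoter-only scaling. At 4-fold iNKT2-high promoters were the larger set in each case, with 238 higher and 109 lower under quantile normalization and 374 and 51 under promoter-only scaling.

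Ifng, which encodes interferon-γ (region chr10:118440482-118441466), was at 61.3 and 61.4 CPM in BALB/c iNKT1 and at 11.5, 7.46 and 7.21 CPM in BALB/c iNKT2. The groups did not overlap, and the change was -2.81 ± 0.19 on the log2 scale (SE, edgeR adjusted p = 1.9e-08). Gzmb, which encodes the cytotoxic protease granzyme B (region chr14:56261897-56262565), was at 62.8 and 58.5 CPM in iNKT1 and at 4.86, 3.39 and 3.01 CPM in iNKT2, a change of -4.01 ± 0.29. Klre1, a receptor of natural killer cells, was at 12.8 and 11.8 CPM in iNKT1 and between 0.185 and 0.330 CPM in all 3 iNKT2 libraries, a change of -5.61 ± 0.29. Both iNKT1 libraries lay far above every iNKT2 library at these promoters.

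The 10 promoters with the smallest p among those more open in iNKT1 were those of Klre1, Fgl2, Dhrs9, Cd2, Cd244a, Kcnj8, Sgip1, Neurl3, Klrc1 and Ifng, with changes of -5.61 to -2.43. They include receptors found on natural killer cells (Klre1, Klrc1, which encodes NKG2A, and Cd244a, which encodes 2B4), a secreted fibrinogen-like protein (Fgl2), a short-chain dehydrogenase (Dhrs9) and a potassium channel (Kcnj8). Dhrs9 was at 53.9 and 58.5 CPM in iNKT1 and at 4.17, 2.46 and 2.14 CPM in iNKT2. Cd2, an adhesion receptor of T cells, was at 32.1 and 33.0 CPM in iNKT1 and at 3.67, 2.57 and 2.10 CPM in iNKT2. Granzyme and Klr genes have near-identical neighbours, and since the authors kept only uniquely mapped reads, insertions in sequence shared between such copies are missing from these counts.

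Of 31 listed genes of the iNKT1 programme, 25 had a promoter in the table. None was higher in iNKT2, 22 fell by at least 2-fold and 16 of these by at least 4-fold, with a median of -2.81 against -0.35 over all promoters. Xcl1, which encodes a chemokine, was at 69.1 and 70.4 CPM in iNKT1 and at 8.37, 2.80 and 2.93 CPM in iNKT2. Nkg7, a cytotoxic granule protein, was at 85.7 and 84.7 CPM against 6.84, 1.27 and 0.989 CPM. At both genes replicate 1 was the highest iNKT2 library, and no call in this list was lost without it. Perforin (Prf1) changed by -3.62 ± 0.30 and the receptor gene Il12rb2 by -3.32 ± 0.25. Tbx21, which encodes T-bet, changed less, by -1.65 ± 0.27 (edgeR adjusted p = 7e-05), as did Il2rb, the gene for the sort marker CD122, by -1.75 ± 0.17. Txk, a Tec family kinase, did not pass (-0.17 ± 0.14, edgeR adjusted p = 0.28). The chemokine receptor gene Cxcr3, at -2.10 ± 0.14, lay so close to the 4-fold limit that it fell below it with library totals, promoter-only scaling, quantile normalization, a filter on low counts or a replicate block. The S1pr5 call (-2.09) was also lost with several scalings and without any of 4 BALB/c libraries, replicate 1 of iNKT2 not among them. Genes with no start in a listed region, among them Eomes, Klrb1c, Ccl3, Ccl4, Id2 and Hopx, were not analysed here.

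Pou2af1, which encodes a coactivator of octamer-binding transcription factors best known in B cells (region chr9:51213406-51214226), was at 2.54 and 2.34 CPM in BALB/c iNKT1 and at 35.2, 37.7 and 34.4 CPM in BALB/c iNKT2. The change was 3.87 ± 0.23 (edgeR adjusted p = 7.5e-09). Flrt2, a leucine-rich transmembrane adhesion protein (region chr12:95691545-95692312), was at 0.717 and 0.749 CPM in iNKT1 and at 23.3, 26.1 and 32.3 CPM in iNKT2, a change of 5.21 ± 0.26. Bend5, a BEN domain protein, was at 1.08 and 1.23 CPM against 15.3, 19.0 and 21.3 CPM, a change of 4.01 ± 0.24. The iNKT2 libraries were well above the iNKT1 libraries at all of these, with no overlap.

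The 10 promoters with the smallest p in this direction were those of Flrt2, Pou2af1, Bend5, Angptl2, Begain, Themis, Il1r1, Mtss1, Adam12 and Mapk10, with changes of 2.94 to 7.29. Apart from Themis, a T cell signalling protein of thymocyte selection, and Il1r1, the IL-1 receptor, most are better known outside T cells: Angptl2 is a secreted angiopoietin-like protein, Begain a protein of neuronal synapses, Mtss1 an actin and membrane regulator, Adam12 a metalloprotease and Mapk10 the kinase JNK3. Mapk10 was at 0.179 and 0.176 CPM in iNKT1 and at 9.13, 10.6 and 11.5 CPM in iNKT2. The lower group often held almost no insertions. Of the 300 promoters higher in iNKT2, 24 had 3 or fewer insertions over both iNKT1 libraries, 4 of them none, so their fitted changes have no firm upper size. At Il1r1 there were 589 insertions in iNKT2 against 2 in iNKT1, a ratio of rates of 176 with a 95% counting interval of 48.5 to 1.46e+03. Such intervals cover counting error only.

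Of the iNKT2 programme, 16 of 18 listed genes had a promoter. At 2-fold 2 rose in iNKT2, Il17rb (1.08 ± 0.17), the receptor for IL-25, whose region also holds the start of Chdh, and Il6ra (1.09 ± 0.16), and 1 fell, Il2 (-1.44 ± 0.16), while none was called at 4-fold. The Il17rb call was lost without BALB/c iNKT1 replicate 2. The list's median was -0.23 against -0.35 over all promoters. The promoters of Il4, Gata3, Zbtb16 and Il13, among its best known members, were not called at 2-fold with edgeR. Il4 was at 11.6 and 10.3 CPM in iNKT1 and at 8.53, 6.06 and 6.68 CPM in iNKT2 (-0.63 ± 0.40, edgeR adjusted p = 0.18). Gata3 changed by -0.27 ± 0.29 and Zbtb16, the gene for PLZF, by -0.36 ± 0.19. Il13 was lower in iNKT2 by -0.96 ± 0.28 (edgeR adjusted p = 0.0081), just under the 2-fold limit, and its groups did not overlap.

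Genes of the iNKT17 programme were measured because the iNKT2 gate could hold other CD122- cells, although the sort took CD27+ cells and the study did not collect iNKT17 cells as a group. Of 13 listed genes 9 had a promoter, and 8 of these were at least 2-fold and 6 at least 4-fold higher in BALB/c iNKT2, with a median of 5.18. Il17a was at 0.0597 and 0.264 CPM in iNKT1 and at 4.49, 5.71 and 6.18 CPM in iNKT2, a change of 5.18 ± 0.54 (edgeR adjusted p = 1e-06). Il23r, the IL-23 receptor, changed by 5.49 ± 0.52, the tyrosine kinase gene Blk by 5.77 ± 0.57, and Il17re, with 306 insertions against 3, had a ratio of 61.0 (95% counting interval 20.7 to 297). Sdc1, which encodes syndecan-1, changed by 1.54 ± 0.23. The summed level of the 9 promoters was 13.8 to 15.2 CPM in BALB/c iNKT1 and 47.9 to 64.1 CPM in BALB/c iNKT2. None of the 9 was at 0 in an iNKT2 library, and 3 were at 0 in a BALB/c iNKT1 library. The part of such cells in the iNKT2-high promoters was not tested.

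**Figure D1:**
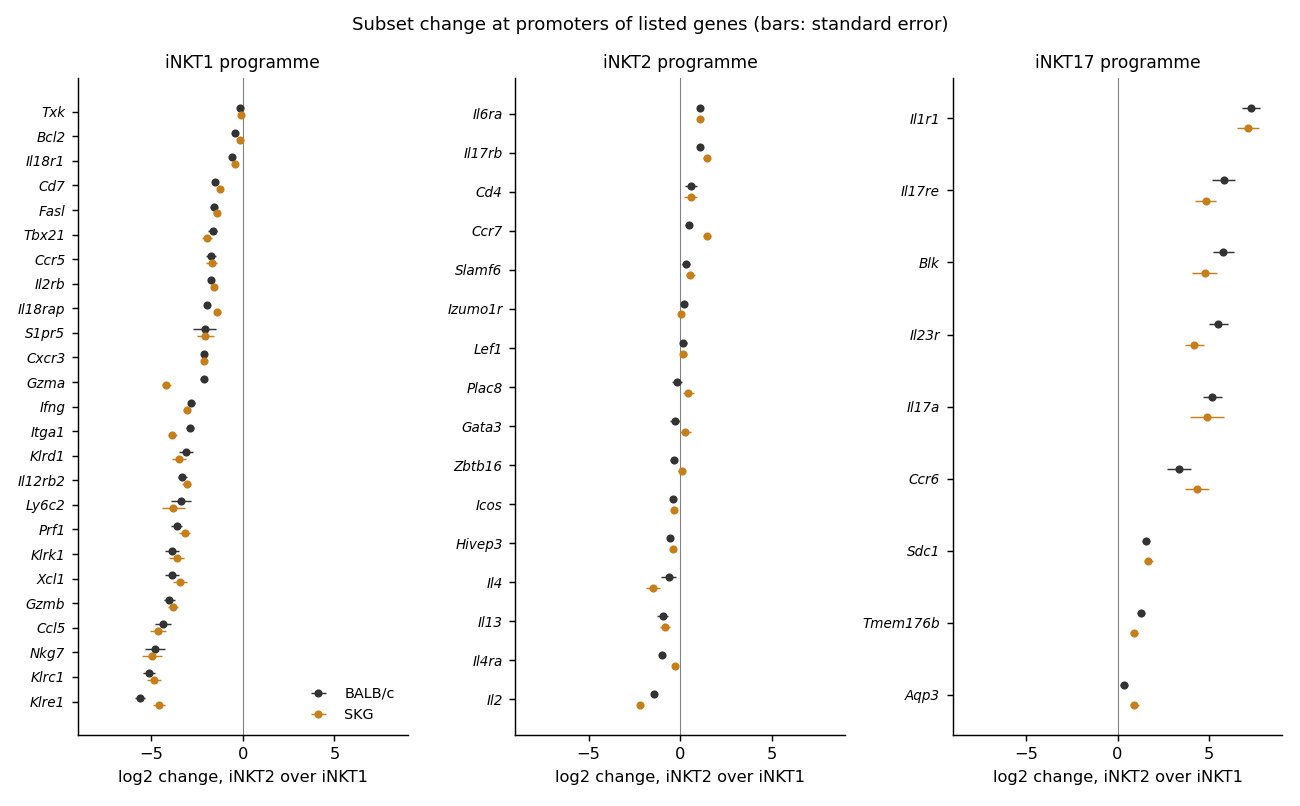
Log2 change in accessibility (iNKT2 over iNKT1) of each promoter of the iNKT1, iNKT2 and iNKT17 gene lists, with BALB/c and SKG shown separately; points are edgeR estimates and bars are ± 1 SE. In BALB/c the iNKT1 list has a median of -2.81, the iNKT2 list of -0.23 and the iNKT17 list of 5.18.

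Promoters of genes that respond to T cell receptor signals were called in both directions. Among 23 of 26 listed genes with a promoter, 2 were higher in BALB/c iNKT2 at 4-fold. These were Tnfrsf4, which encodes OX40 (0.866 and 0.705 CPM against 10.3, 12.7 and 8.82 CPM, a change of 3.73 ± 0.32), and Lag3, an inhibitory receptor (2.02 ± 0.26). Lag3 fell below the 4-fold rule without BALB/c iNKT1 replicate 2 or without BALB/c iNKT2 replicate 1. At 2-fold 5 were lower, Nr4a2, Nfatc1, Cd69, Tnfrsf18 and Bhlhe40, by 1.02 to 1.25 log2 units. The Cd69 call was lost without BALB/c iNKT1 replicate 2 or BALB/c iNKT2 replicate 1. The calls of these promoters moved with the scaling. With library totals or promoter-only scaling edgeR called 0 of the list lower, with quantile normalization limma called 1 and with its own size factors DESeq2 called 4, while 14 were lower at an unadjusted p under 0.05 in the fit as reported. The same held for Dusp2 and Dusp10, phosphatases that restrain MAP kinases, for the Notch-regulated gene Nrarp and for the housekeeping gene Actb, each of which was between 1.03 and 1.57 log2 units lower and lost its call with library totals.

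Of the other lists, S1pr1, the receptor that guides T cells out of the thymus, was higher in iNKT2 (1.26 ± 0.24), and Klf2 (-1.09 ± 0.14) and Klf3 (-1.41 ± 0.14), transcription factors of quiescence and egress, were lower. The Klf2 call was lost under scaling to library totals, promoter-only scaling or quantile normalization, and when replicate 1 of BALB/c iNKT2 was left out. Of 13 promoters of T cell identity genes, Cd2, Thy1 and Runx1 were at least 2-fold lower in iNKT2 (Cd2 alone with promoter-only scaling), and the genes of the CD3 chains Cd3d, Cd3e and Cd3g were not called (-0.56 to -0.11). Markers of other cells had few promoters in the table. Ebf1 was the single B cell marker, at 1.99 to 3.88 CPM over all 10 libraries and not called between subsets. Of the myeloid markers Cebpa rose in BALB/c iNKT2 (2.11 ± 0.27, below the 4-fold rule with a replicate block) and Itgam did not pass (-1.42 ± 0.68, edgeR adjusted p = 0.082). Aire, of thymic epithelium, was higher in BALB/c iNKT2 by 0.94 ± 0.18 (edgeR adjusted p = 0.00038), just under the 2-fold limit. It was called at 2-fold with library totals, quantile normalization and promoter-only scaling. No marker of double-positive thymocytes (7 genes) or of erythroid cells (5 genes) had a promoter in the table. The T cell identity genes Bcl11b, Tcf7, Cd28 and Ets1 and the housekeeping gene Gapdh had none either. A missing promoter therefore does not show that a gene's start was closed. The part of cells of these other types was not tested.

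**Figure D2:**
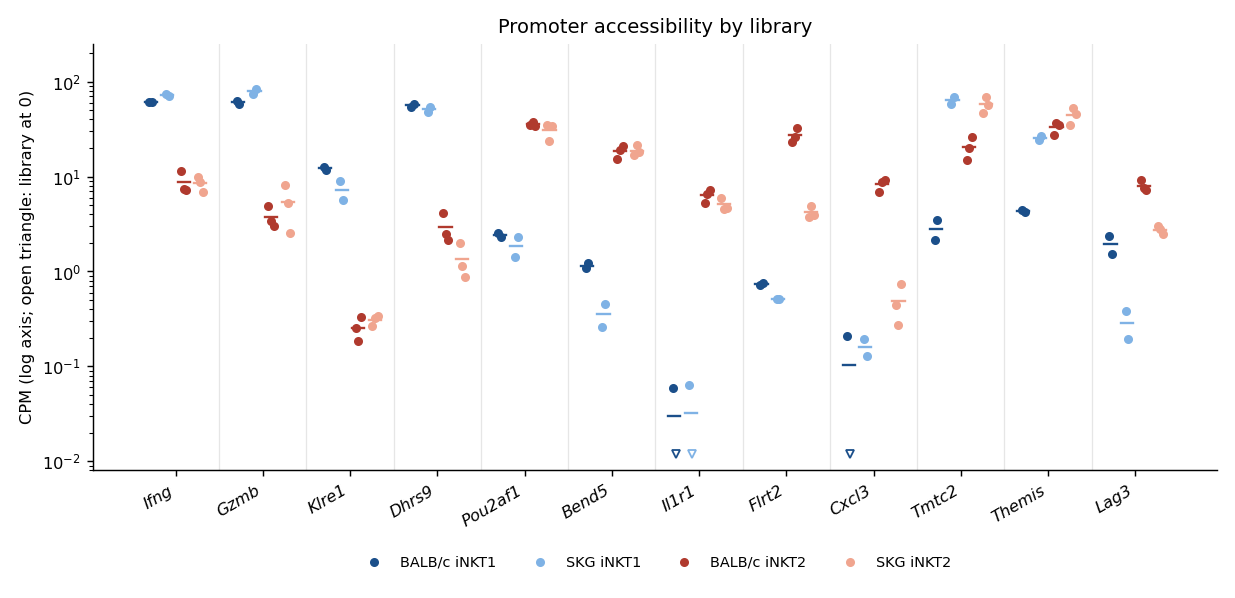
Accessibility of 12 promoters in each of the 10 libraries, as TMM-scaled CPM on a log axis; dots are libraries, lines are group means and an open triangle marks a library with no insertion. Ifng, Gzmb, Klre1 and Dhrs9 are high in the 4 iNKT1 libraries, Pou2af1, Bend5 and Il1r1 in the 6 iNKT2 libraries, and Tmtc2 and Themis are low in BALB/c iNKT1.

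The same subset comparison was made within SKG mice. Its group means came from SKG libraries alone, while scaling and spread were estimated over all 10 libraries of both genotypes. It gave 264 promoters (2.66%) higher and 90 (0.908%) lower in iNKT2 at 4-fold. The background over all regions was 10.2% and 6.96%. Under quantile normalization the split was 132 higher and 90 lower. At 2-fold 607 were higher and 319 lower, against 16.7% and 13.7% of all regions, and these became 767 and 201 with library totals and 724 and 217 with promoter-only scaling. The median promoter changed by -0.14, and the middle 90% lay between -0.85 and 1.45. Of the promoters higher in BALB/c iNKT2, 178 were also called in SKG, which is 59.3% of the BALB/c and 67.4% of the SKG set. In the iNKT1-high direction 59 were shared, 75.6% of the BALB/c and 65.6% of the SKG set. All 78 BALB/c iNKT1-high promoters and 292 of the 300 iNKT2-high promoters had the same sign in SKG. Over the 9916 promoters the changes had a Pearson r of 0.857 and a Spearman rho of 0.809, given as a description since promoters share libraries.

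**Figure D3:**
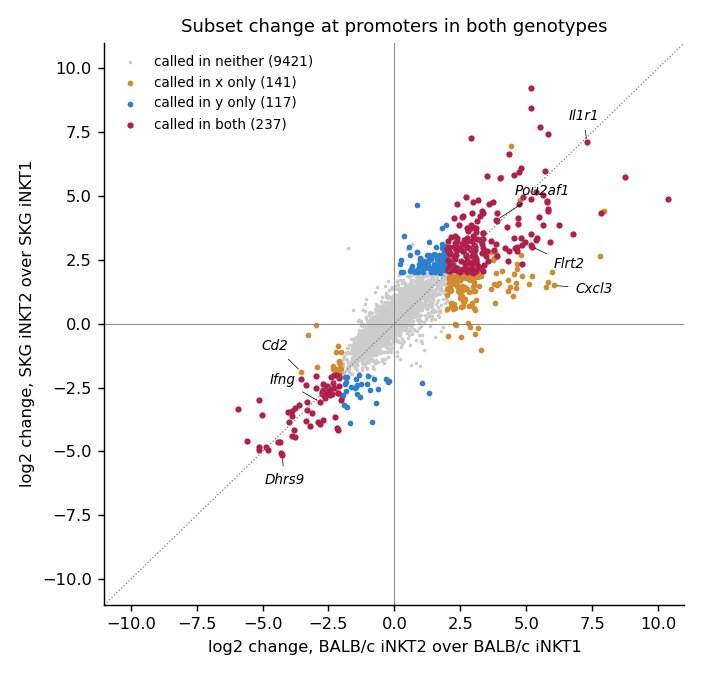
Log2 change from iNKT1 to iNKT2 at each of the 9916 promoters, in BALB/c on the x axis and in SKG on the y axis, coloured by whether the promoter was called at 4-fold. 237 promoters were called in both genotypes, 141 only in BALB/c and 117 only in SKG; the difference between genotypes was tested separately, by the interaction.

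In SKG, Ifng was at 73.8 and 71.4 CPM in iNKT1 and at 9.96, 8.68 and 6.94 CPM in iNKT2, a change of -3.07 ± 0.19 (edgeR adjusted p = 1.6e-08). Gzmb was at 75.1 and 83.8 CPM against 8.17, 5.33 and 2.56 CPM, and Dhrs9 at 48.5 and 54.1 CPM against 1.99, 1.15 and 0.877 CPM, a change of -5.16 ± 0.27. The 10 iNKT1-high promoters with the smallest p were those of Dhrs9, Gzma, Kcnj8, Ifng, Fgl2, Tmem37, Itga1 (whose region also holds the start of Gm49395), Samd3, Sgip1 and Klra5, from -5.16 to -2.35. Gzma encodes granzyme A, Itga1 the α1 integrin chain and Klra5 a receptor of the Ly49 family. In the other direction those with the smallest p included Bend5, Pou2af1, Mtss1, Begain, Susd4, Tank, Fsd1l, Fgf2 and Prnd, all between 2.67 and 5.71. Fgf2 is a growth factor, Susd4 a regulator of complement and Tank an adaptor of NF-κB signalling. Bend5 was at 0.257 and 0.449 CPM in SKG iNKT1 and at 16.9, 21.4 and 18.1 CPM in SKG iNKT2.

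Of the 25 iNKT1 programme promoters, 22 were lower in SKG iNKT2 at 2-fold and 16 at 4-fold, with a median of -3.07 against -0.14 over all promoters. Of the iNKT2 programme, Il17rb, Il6ra and Ccr7 were higher at 2-fold and Il2 and Il4 lower. Ccr7, a homing receptor of lymphoid tissue, was at 12.5 and 17.1 CPM in iNKT1 and at 47.5, 35.1 and 39.7 CPM in iNKT2. Il4, at -1.49 ± 0.40 (edgeR adjusted p = 0.0063), had 10.1 CPM in iNKT2 replicate 1 and 3.49 and 2.23 CPM in the other libraries, and its call was lost with DESeq2, library totals, promoter-only scaling and quantile normalization and without any of 4 SKG libraries. Of the 9 iNKT17 promoters, 7 were higher at 2-fold and 6 at 4-fold, with a median of 4.35, and their summed level was 16.8 to 17.5 CPM in SKG iNKT1 and 48.5 to 70.0 CPM in SKG iNKT2. The Il17a call (4.88) was lost with limma and without SKG iNKT1 replicate 1. Il1r1 held 372 insertions against 1, a ratio of 165 (95% counting interval 29.4 to 6.53e+03). Among T cell receptor response genes 5 were higher at 2-fold, Lag3, Tnfrsf4, Pdcd1 (PD-1), Rgs16 and Cish, and 1 lower, Nr4a2, where BALB/c had 2 and 5. Of the myeloid markers Cebpa rose (1.80 ± 0.30), and Itgam, whose region also holds the start of Gm49368, fell (-2.76 ± 0.70, edgeR adjusted p = 0.004), a call lost with library totals, promoter-only scaling, DESeq2 and without SKG iNKT1 replicate 2 or SKG iNKT2 replicate 2. Without SKG iNKT2 replicate 1, whose iNKT1 programme levels were the highest, the calls of Il6ra, Cish and Klf2 were lost, and 265 promoters were higher and 107 lower at 4-fold.

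In iNKT1 cells the genotypes differed at few promoters. 10 promoters were higher in SKG at 4-fold (0.101%) and 10 lower (0.101%), where 0.281% and 0.732% of all regions were called. At 2-fold 15 were higher and 33 lower, with a background of 0.635% and 1.35%. With limma and quantile normalization 7 were higher and 0 lower at 4-fold, with 10 lower at an unadjusted p under 0.05, and 12 higher and 10 lower at 2-fold. At 4-fold 5 were higher without either BALB/c iNKT1 library and 6 without either SKG iNKT1 library, and 1 was lower without replicate 1 and 5 without replicate 2 of either genotype. The change lay within 2-fold at 97.2% of promoters. The groups did not overlap at any promoter called here, nor at any called in the other pairwise comparisons, so this adds no support to a call. Each group holds 2 libraries, and 16 of the 20 promoters named in this comparison lost their call in at least 1 alternative. The 4 that kept it in every alternative run were Tmtc2, Themis, Pard3 and Spock2, all higher in SKG.

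Tmtc2, which encodes a membrane protein of the endoplasmic reticulum (region chr10:105573298-105574935), was at 2.12 and 3.48 CPM in BALB/c iNKT1 and at 57.6 and 69.9 CPM in SKG iNKT1. The change was 4.54 ± 0.29 (edgeR adjusted p = 3.5e-06). Themis, a signalling protein needed for thymocyte selection (region chr10:28667892-28668621), was at 4.42 and 4.19 CPM against 24.5 and 26.5 CPM, a change of 2.56 ± 0.21 (edgeR adjusted p = 8.3e-06). Pard3, a scaffold of cell polarity, was at 0.299 and 0.176 CPM against 5.72 and 7.12 CPM, a change of 4.67 ± 0.48. At Spock2, which encodes an extracellular proteoglycan, BALB/c iNKT1 was at 1.67 and 1.90 CPM and SKG iNKT1 at 8.48 and 16.6 CPM, a change of 2.81 ± 0.29. The remaining promoters higher in SKG were Tlr4, the receptor for lipopolysaccharide (10.8 and 12.5 against 67.5 and 46.3 CPM), Rgs18, Mei4, P2ry1, Olfr823 and Map6, from 2.02 to 3.27.

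The promoters lower in SKG iNKT1 were those of Ccdc122 and Lacc1 (a shared region), Jam2, Lag3, Furin, Zfp536, Lrrn2, Fam184a, Svip, Lgi2 and Dok6. Lag3 was at 2.36 and 1.54 CPM in BALB/c and at 0.385 and 0.192 CPM in SKG iNKT1, a change of -2.76 ± 0.43 (edgeR adjusted p = 0.0013), and the call was lost with limma and without BALB/c iNKT1 replicate 1 or either SKG iNKT1 library. Jam2, a junctional adhesion molecule, was at 4.03 and 3.57 CPM against 0.707 and 0.834 CPM. Furin, a proprotein convertase, and Lrrn2 had 2 insertions each over the SKG iNKT1 libraries. Their ratios of BALB/c to SKG were 34.9 (95% counting interval 9.47 to 292) and 20.5 (5.48 to 173).

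Among the lists, no iNKT1 programme promoter was called between genotypes in iNKT1 cells with edgeR at 2-fold, where 1 was higher and 2 lower at an unadjusted p under 0.05 and DESeq2 and limma with voom each called 1 higher. Of the T cell receptor response genes 3 fell at 2-fold, Lag3, Pdcd1 (-1.13 ± 0.21) and Rgs16 (-1.66 ± 0.27), a regulator of G protein signalling, and none rose. The Pdcd1 and Rgs16 calls were lost without BALB/c iNKT1 replicate 1 or either SKG iNKT1 library, and that of Rgs16 also without BALB/c iNKT1 replicate 2. DESeq2 also called 3 and limma with voom none, and 9 were lower at an unadjusted p under 0.05. The list's median was -0.29 against 0.05 over all promoters. Izumo1r, which encodes folate receptor 4, fell from 44.0 and 41.5 CPM to 17.5 and 17.6 CPM (-1.29 ± 0.15, edgeR adjusted p = 0.00019) and kept its call in every alternative run. Tmem176b, of the iNKT17 list, rose by 1.15 ± 0.23 but lost its call with library totals, promoter-only scaling and limma, and without any of the 4 iNKT1 libraries.

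In iNKT2 cells the genotypes differed at more promoters, mostly toward lower accessibility in SKG. At 4-fold 4 promoters were higher (0.0403%) and 60 lower (0.605%) in SKG, where 0.252% and 4.73% of all regions were called. At 2-fold 39 were higher and 165 lower, with a background of 1.55% and 9.07%. The median promoter changed by 0.26, against 0.13 with library totals, 0.06 with quantile normalization and 0.01 with promoter-only scaling. With promoter-only scaling 10 promoters were higher and 231 lower at 2-fold, and with quantile normalization 15 were higher and 52 lower at 4-fold and 77 and 134 at 2-fold. All 60 promoters lower at 4-fold were in the lowest of 4 equal groups of promoters by mean level, and 55 by the level of their most open group. Their median level was 4.14 CPM in BALB/c iNKT2 and 0.616 CPM in SKG iNKT2, a gap that follows from how they were chosen. The median was 0.282 CPM in BALB/c iNKT1 and 0.225 CPM in SKG iNKT1, levels that the fold rule did not use. At the median these were promoters open mainly in BALB/c iNKT2 cells.

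Flrt2 was at 23.3, 26.1 and 32.3 CPM in BALB/c iNKT2 and at 3.74, 4.87 and 3.98 CPM in SKG iNKT2. The change was -2.70 ± 0.18 (edgeR adjusted p = 1.5e-07). Cxcl3, a chemokine that attracts neutrophils, was at 6.96, 8.86 and 9.32 CPM against 0.446, 0.276 and 0.742 CPM, a change of -4.16 ± 0.36. Areg, which encodes the epidermal growth factor receptor ligand amphiregulin, was at 12.6, 14.2 and 17.0 CPM against 2.35, 1.24 and 3.44 CPM, a change of -2.67 ± 0.26. Every BALB/c library lay above every SKG library at these promoters. Lgi2, a secreted leucine-rich protein, was at 9.88, 13.5 and 16.7 CPM against 1.57, 0.918 and 1.35 CPM (-3.35 ± 0.28), and Zfp536, a zinc finger protein, at 3.76, 3.04 and 3.30 CPM against 0.0891, 0.0459 and 0.405 CPM (-4.47 ± 0.45). Lgi2 and Zfp536 were the promoters called lower in SKG at 4-fold in both subsets. The other promoters among the 10 with the smallest p were those of Htr2a, a serotonin receptor, Rprm, a cell cycle inhibitor, Mapk10, Dydc1 and Ccdc149, from -4.08 to -2.47. All 10 kept their calls in every alternative run.

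The 4 promoters higher in SKG iNKT2 at 4-fold were those of Pard3, S1pr5, Xcr1 and Zfp931. Pard3, also called in iNKT1 cells, was at 0.627, 0.529 and 1.11 CPM in BALB/c and at 2.76, 5.92 and 4.85 CPM in SKG iNKT2 (2.60 ± 0.34, edgeR adjusted p = 5.2e-05) and kept its call in every alternative run. The other three did not. S1pr5, a sphingosine phosphate receptor of natural killer cells, was at 0.251, 0.0794 and 0.0412 CPM against 1.16, 0.413 and 0.674 CPM, and its call and that of Xcr1, the receptor of the chemokine Xcl1, were lost when any of SKG iNKT2 replicate 1 and BALB/c iNKT2 replicates 2 and 3 was left out. Without the SKG library 2 promoters were higher and 66 lower.

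Of the lists, Cd2 rose from 3.67, 2.57 and 2.10 CPM in BALB/c iNKT2 to 12.6, 8.08 and 10.9 CPM in SKG iNKT2 (1.91 ± 0.20, edgeR adjusted p = 8.8e-06), and Thy1, a surface glycoprotein of T cells, rose by 1.03 ± 0.21. With a replicate block Thy1 was at 1.00 and just under the 2-fold limit, and the call was also lost with DESeq2, with library totals and without any of 4 iNKT2 libraries. Izumo1r fell from 53.4, 45.3 and 50.5 CPM to 20.1, 16.1 and 17.6 CPM (-1.47 ± 0.12, edgeR adjusted p = 1.3e-06), and the difference from its change in iNKT1 cells was -0.18 ± 0.20 (edgeR adjusted p = 0.66). Lag3 (-1.53 ± 0.22) and Rgs16 (-1.38 ± 0.19) also fell, and these were the 2 of 23 T cell receptor response promoters called at 2-fold. At an unadjusted p under 0.05 with edgeR, 10 of this list were higher and 2 lower. The list's median was 0.25 against 0.26 over all promoters. Il17a fell from 4.49, 5.71 and 6.18 CPM to 0.624, 1.10 and 1.75 CPM (-2.32 ± 0.35, edgeR adjusted p = 0.00021), although the 4-fold call was lost without SKG iNKT2 replicate 1. No other iNKT17 promoter was called lower at 2-fold. Blk was at 4.33, 5.08 and 5.81 CPM in BALB/c and at 1.99, 3.44 and 2.97 CPM in SKG iNKT2, without overlap, but did not pass (-0.87 ± 0.31, edgeR adjusted p = 0.052). Ccr6, a chemokine receptor, rose by 1.51 ± 0.37 (lost without any of 4 iNKT2 libraries and with library totals or promoter-only scaling), Il23r was at -0.23 ± 0.28 and Il1r1 at -0.30 ± 0.23. Of the iNKT1 programme S1pr5 rose and Gzma fell (-1.79 ± 0.23), and none of the housekeeping promoters was called at 2-fold with edgeR, DESeq2 or limma with voom, although 10 of 18 were higher at an unadjusted p under 0.05.

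The genotype changes in the 2 subsets had group means from separate libraries, with scaling and spread estimated over all 10. Of the promoters higher in SKG, Pard3 was called in both subsets, 10.0% of the iNKT1 and 25.0% of the iNKT2 set. Of those lower, 2 were shared, 20.0% and 3.33%. Over all 9916 promoters the changes had a Pearson r of 0.354 and a Spearman rho of 0.0898.

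**Figure D4:**
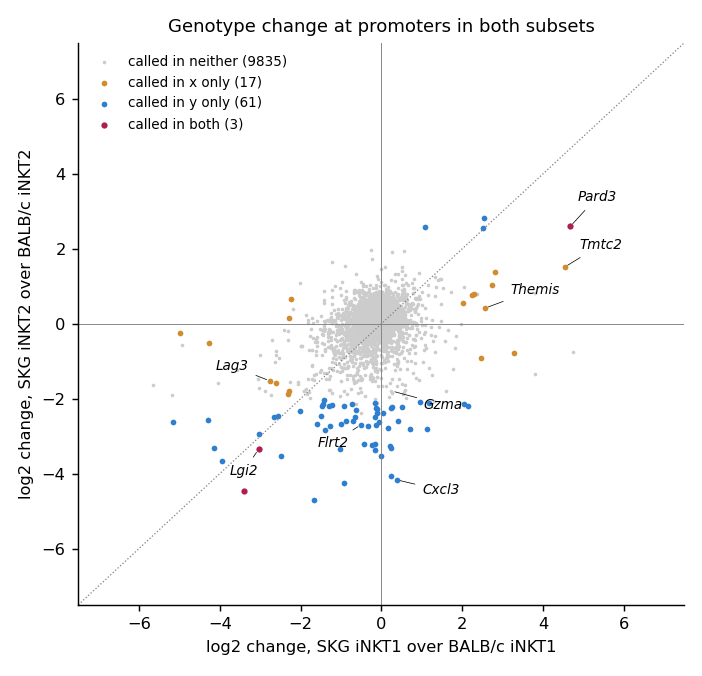
Log2 change from BALB/c to SKG at each of the 9916 promoters, in iNKT1 on the x axis and in iNKT2 on the y axis, coloured by whether the promoter was called at 4-fold. 3 promoters were called in both subsets, 17 only in iNKT1 and 61 only in iNKT2, and most of the latter lie below 0 on the y axis.

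Whether a promoter's genotype change differed between subsets was tested directly, as the change in iNKT2 minus the change in iNKT1. At 4-fold 3 promoters were called above 0 (0.0303%) and 6 below (0.0605%), where 0.189% and 0.341% of all regions were called, and at 2-fold 23 and 9, with 0.441% and 0.478% as the background. With promoter-only scaling the counts were 1 and 8 at 4-fold and 5 and 11 at 2-fold, with quantile normalization 1 and 4 at 4-fold and 9 and 6 at 2-fold, and with library totals 9 and 8 at 2-fold. DESeq2 called 6 above and 22 below 0 at 4-fold. Leaving out 1 library gave 0 to 6 above, with 0 by edgeR without BALB/c iNKT1 replicate 2 or SKG iNKT1 replicate 1 (14 and 23 at an unadjusted p under 0.05), and 1 below without BALB/c iNKT1 replicate 2 to 13 below without BALB/c iNKT2 replicate 1. Themis rose in SKG iNKT1 by 2.56 ± 0.21 while in iNKT2, at 27.5, 37.2 and 34.9 CPM in BALB/c and 34.9, 52.6 and 45.5 CPM in SKG, it changed by 0.42 ± 0.15 (edgeR adjusted p = 0.059). The difference was -2.15 ± 0.26 (edgeR adjusted p = 0.00078), and its 4-fold call was lost without BALB/c iNKT1 replicate 2 or SKG iNKT2 replicate 1. Tmtc2 was higher in SKG in both subsets, at 14.9, 20.1 and 26.0 CPM in BALB/c iNKT2 and 47.0, 69.1 and 57.4 CPM in SKG iNKT2 (1.51 ± 0.20), and the difference was -3.02 ± 0.34. In BALB/c both promoters were more open in iNKT2 than in iNKT1 (2.88 ± 0.27 for Tmtc2 and 2.94 ± 0.20 for Themis), whereas in SKG the subsets were at -0.14 ± 0.22 and 0.80 ± 0.18.

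The shared promoter of Ccdc122 and Lacc1 showed the reverse layout: SKG iNKT1 was at 1.22 and 1.73 CPM and the other 8 libraries were between 6.96 and 12.9 CPM, with a difference of 2.46 ± 0.31. Fam184a (2.92 ± 0.50) and Epn2 (2.10 ± 0.39), which encodes an endocytic adaptor, were also above 0. Parm1 (-4.35 ± 0.61), Gzma (-2.04 ± 0.31), Map6 (-3.37 ± 0.62), which encodes a microtubule stabilizer, and Gpr141 (-2.97 ± 0.57), an orphan receptor, were below. Gzma was at 15.4 and 14.5 CPM in BALB/c iNKT1 and 17.1 and 18.3 CPM in SKG iNKT1, and at 3.36, 3.15 and 3.71 CPM in BALB/c iNKT2 and 1.28, 0.827 and 0.674 CPM in SKG iNKT2. Of the listed genes, Cd2 (1.66 ± 0.30) and Cish (1.44 ± 0.26) passed at 2-fold. Both calls were lost with library totals, promoter-only scaling or the filter on low counts, and that of Cish also with limma. Each was also lost in 7 of the runs that left out 1 library. Of the 8 promoters named by rule in this comparison, Tmtc2 alone kept its call in every alternative run. Tigit (1.39 ± 0.20), an inhibitory receptor, Cxcr4 (1.18 ± 0.18), a chemokine receptor, and Fas (1.28 ± 0.20), a death receptor, were among the promoters called at 2-fold and were picked after their values were seen.

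Promoters called between subsets in either direction were mostly weak ones by mean level, and those more open in iNKT1 were mostly CpG-poor. Over 4 equal groups by mean level, with limits at 24.3, 45.9 and 74.4 CPM per kilobase, 283, 14, 3 and 0 promoters were higher in BALB/c iNKT2 at 4-fold and 60, 12, 6 and 0 lower. A mean over all libraries is itself lowered by a change. With promoters ranked instead by the mean of their most open group, a choice made after seeing the data, the counts were 262, 27, 10 and 1 higher and 38, 23, 11 and 6 lower. In the most open group by the mean over all libraries edgeR called none at 4-fold in any pairwise comparison, and at 2-fold it called 3 higher and 38 lower between the BALB/c subsets. Of CpG-rich promoters 2.25% were higher and 0.298% lower in BALB/c iNKT2, and of CpG-poor promoters 6.38% and 2.90%. Thus 60.3% of the iNKT2-high and 30.8% of the iNKT1-high promoters were CpG-rich, against 81.2% of all promoters. In SKG the shares were 65.2% and 23.3%. Promoters with starts on both strands seldom changed, with 2 of 848 higher and 0 lower in BALB/c iNKT2. These are descriptions with no test.

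**Figure D5:**
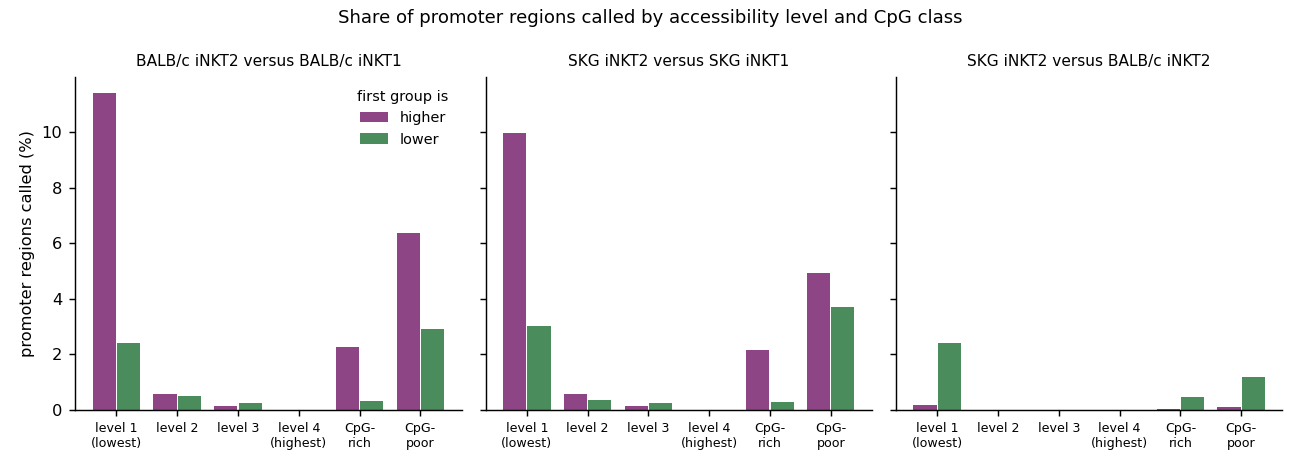
Share of promoters called at 4-fold (percent, bars from 0) by the 4 groups of mean level and by CpG class, in the subset comparison of each genotype and the genotype comparison in iNKT2. In BALB/c 11.4% of the least open group and none of the most open group was higher in iNKT2.

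Short strings were counted in the 300 bases around each region's centre, on both strands. The TATA box was searched for as TATAAA and the CCAAT box by the letters of its name. The GC box was taken as GGGCGG and the ETS core as CCGGAAG. For RUNX factors the letters were TGTGGTT, for T-box factors GTGTGA, and for TCF/LEF factors ATCAAAG. For EGR factors they were GTGGGCG, which can overlap the GC box. The CRE was searched for as TGACGTCA and the NF-κB string as GGGACTTTC. The RUNX string was in 20.5% of the promoters more open in BALB/c iNKT1, 3.33% of those more open in iNKT2 and 3.41% of all promoters. The T-box string was in 23.1%, 10.3% and 9.65%, the TATA box in 12.8%, 7% and 4.14% and the ETS string in 8.97%, 2.33% and 16.9%. In SKG the iNKT1-high promoters held the RUNX string in 18.9% and the T-box string in 20.0%. Of the 60 promoters lower in SKG iNKT2, 11.7% held the TATA box and 1.67% the ETS string. The EGR string was in 20.0% of them, 15.3% and 17.8% of the promoters more open in BALB/c and SKG iNKT2 and 14.3% of all promoters, and the CRE string in 6.67%, 3% and 2.27% and 2.69%. The other regions, which are less CpG-rich, held the RUNX string in 14.3% and the T-box string in 21.1%. A match is a description of these letters and not evidence of binding.

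Some genes have further starts in other accessible regions. Of the genes with a promoter, 1374 also had an alternative transcript start in another region, which gave 1596 pairs. No gene had 1 region called higher and the other lower at 4-fold by edgeR in the same comparison. At 2-fold 6 genes did, all picked here after their values were seen. At Thra, which encodes a thyroid hormone receptor, the promoter rose in BALB/c iNKT2 by 1.10 ± 0.30 and a region 1517 bp away fell (-1.04 ± 0.24). At BC004004 the promoter fell in iNKT2 in both genotypes (-1.55 ± 0.22 in BALB/c and -1.21 ± 0.22 in SKG) while a region 4484 bp away rose (3.12 ± 0.41 and 3.24 ± 0.46). The others included Dlgap4, Arpc3 and Psmd9.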

How the data were processed

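Chromatin accessibility was measured by ATAC-seq in 10 libraries of iNKT1 and iNKT2 cells, sorted from thymi of BALB/c and SKG animals. Per the labels and the study's methods, the authors aligned reads to mm10 with Bowtie 1.0 (unique hits only), trimmed unmapped reads with Trim Galore and mapped them again, removed mitochondrial and duplicate reads with Picard, called peaks with MACS2 on short fragments in each replicate, merged them into 1 set and counted transposase insertions per region. The deposited values are whole-number insertion counts, although the table is named as normalized, with totals of 14988590 to 36342635 per library; this depth limits the least open promoters. Since regions come from peaks of these libraries, promoters closed in every group were not analysed here.

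Promoters were regions holding the 5′ end of a protein-coding gene record of GENCODE M21. The starts of protein-coding transcripts (12752 regions, 13.4%) were the definition first planned and became the alternative, because gene starts gave a share (10.5%) nearer to the tenth by which this class of regions was set. Coordinates are 1-based. edgeR 4.0.16 (R 4.3.3) fitted 1 mean per group over all 94823 regions and 10 libraries with TMM factors, quasi-likelihood F tests and Benjamini-Hochberg adjustment; calls needed an adjusted p under 0.01 and 4-fold, or 2-fold where stated. limma 3.58.1, DESeq2 1.42.0, library totals, quantile normalization, promoter-only TMM factors (added after the median shift was seen), a filter, a replicate block and leaving out each library were alternatives. The edgeR fit was tested on simulated counts in which some regions were changed in SKG iNKT2. Each SE is the absolute log2 change divided by the square root of the edgeR F statistic. Named promoters are the 10 of smallest p per direction (5 for the interaction) with no overlap between groups, plus 14 lists of 187 genes, of which 131 had a promoter; a few genes are not reported here. The members and lists were chosen with earlier results of these data known. Deviations of same-numbered SKG and BALB/c iNKT2 libraries had r of 0.517, 0.181 and 0.224 for replicates 1, 2 and 3. The values for replicates 2 and 3 were near those between the BALB/c subsets (0.161 and 0.119). Libraries of different number were not compared, and the labels give no pairing. Whether the numbers pair libraries is therefore not settled, and the main fit used no replicate block. Sequence windows were read with pysam 0.24.0 and tables with pandas 2.3.3 (Python 3.11.15).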

Additional observations from a re-analysis of the deposited data

Results flagged for a closer look

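The interaction test (edgeR, adjusted p under 0.01) called 32 promoters at 2-fold or more, 23 above and 9 below 0 (0.232% and 0.0908%). Of all regions 0.441% and 0.478% were called. The counts moved with the scaling, to 5 above and 11 below 0 with promoter-only scaling and 9 and 8 with library totals. Given here are 11 of the 32 promoters, the 9 at 4-fold or more and 2 listed genes. The difference in log2 change, iNKT2 minus iNKT1, was -3.02 at Tmtc2, -2.15 at Themis, -4.35 at Parm1, -2.04 at Gzma, -3.37 at Map6 and -2.97 at Gpr141. It was 2.46 at the shared promoter of Ccdc122 and Lacc1, 2.92 at Fam184a, 2.10 at Epn2, 1.66 at Cd2 and 1.44 at Cish. The Cd2 and Cish calls were lost in several alternative runs.

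Parm1 was at 0.657 and 0.573 CPM in BALB/c iNKT1 and at 4.05 and 1.48 CPM in SKG iNKT1, and at 4.08, 6.90 and 7.54 CPM in BALB/c iNKT2 and 0.891, 1.47 and 1.82 CPM in SKG iNKT2. It fell in SKG iNKT2 (-2.20 ± 0.35) and did not pass in iNKT1 (2.15 ± 0.49, edgeR adjusted p = 0.019). Gpr141 was at 1.91 and 1.37 CPM in BALB/c iNKT1, 5.91 and 5.32 CPM in SKG iNKT1, 1.10, 0.767 and 0.866 CPM in BALB/c iNKT2 and 0.654, 0.184 and 0.202 CPM in SKG iNKT2. Cd2 did not pass between genotypes in iNKT1 (0.25 ± 0.22) and rose in SKG iNKT2 (1.91 ± 0.20). Each group held 2 or 3 libraries, too few to look for single outlying values.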

How the results depend on the processing

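Of 186 named promoter values, 118 kept their call in every alternative run, none reversed, and 368 of 2440 alternative values lost the call. At 4-fold, BALB/c iNKT2-low promoters (78) numbered 51 with promoter-only scaling, 51 with a filter at 36.2 mean insertions and 122 by transcript starts, and SKG iNKT2-high promoters (264) numbered 132 with quantile normalization. Promoters lower in SKG iNKT1 (10) numbered 2 with limma and voom, 0 with quantile normalization (10 at an unadjusted p under 0.05), 17 with only the groups compared and 20 by transcript starts. Promoters higher in SKG iNKT2 (4) numbered 2 with library totals, 1 with promoter-only scaling, 15 with quantile normalization and 1 with the filter, and those lower (60) numbered 91 by transcript starts. Interaction promoters above 0 (3) numbered 1 with promoter-only scaling, 6 with DESeq2 and 1 with quantile normalization, and those below (6) numbered 22 with DESeq2, 3 with voom and 11 by transcript starts. More regions count as promoters by transcript starts, and fewer regions are tested under the filter; the cause of the other differences was not tested.

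With a replicate block, 4 promoters were higher and 62 lower in SKG iNKT2, and Thy1 alone of the named promoters lost its call there. The numbers are shared labels, and whether they pair libraries is not settled in any comparison. The block gave 21 promoters lower in SKG iNKT1 and 6 and 10 in the interaction; the correlation of same-numbered libraries was -0.009 between the iNKT1 groups, 0.161 and 0.119 between the BALB/c subsets and 0.003 and -0.013 between the SKG subsets.

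Leaving out 1 library gave 289 to 321 higher and 66 to 89 lower in BALB/c iNKT2, 192 to 275 and 83 to 107 in SKG iNKT2, 5 to 6 higher and 1 to 5 lower in SKG iNKT1, 1 to 6 and 51 to 66 in SKG against BALB/c iNKT2, and 0 to 6 and 1 to 13 in the interaction. The 0 came without BALB/c iNKT1 replicate 2 or without SKG iNKT1 replicate 1, with edgeR, where 14 and 23 promoters passed at an unadjusted p under 0.05. Depth limits promoters with few insertions, where fitted changes carry wide counting intervals.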
